A study of Mus musculus with 8 samples.

Results

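Mest, Sfrp5, Bmp3, Npr3, Nkd1 and Trp53inp2 are genes known to follow the growth of fat mass on a high-fat diet (HFD), and their 6 rows were taken by symbol from the 30387 genes of the deposited table. All 6 passed the filter on low values (mean at or above 5), as did 18800 genes in all. RNA-seq had been run on primary white adipocytes isolated from the epididymal (visceral) fat of mice, with 2 libraries in each of 4 groups. The groups were wild-type littermates (WT) on normal chow (NC), WT on HFD, and Ad-Yap/Taz-KO mice (KO) on either diet. Both diets lasted 4 weeks, from week 5 per the labels and from an age of 6 weeks per the study's methods, which name a Western-type HFD and male animals. The KO carries floxed Yap and Taz alleles with Adipoq-Cre. Cre under this adiponectin promoter acts in adipocytes, so cells of other types in an isolate keep both genes. Whether the WT littermates of this line carried Cre or floxed alleles is not stated. No group is described as carrying Cre without floxed alleles. The comparisons ask how the 6 genes respond to HFD in each genotype and how the loss of YAP and TAZ changes that response.

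White adipose tissue stores excess energy by enlarging adipocytes, and these genes are part of what adipocytes switch on or off as they grow. Mest is an imprinted gene, expressed from the paternal copy, whose protein resembles hydrolases and which is known as a marker of enlarging fat cells. SFRP5 is a secreted protein that binds WNT ligands, NKD1 acts inside the cell on the WNT signal carrier Dishevelled, and BMP3 is a secreted ligand of the BMP family that opposes other BMPs. NPR3 is the clearance receptor that removes natriuretic peptides, which stimulate lipolysis. TRP53INP2 acts in autophagy and as a nuclear cofactor.

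Depth lay between 14.0 and 22.3 M reads on genes, and a normalized count is the count of a gene over the size factor of its library. The libraries of a group came from 2 mice per the study. The WT HFD libraries differed by 4.78 to 5.86 times the Poisson variance at every level of expression, whereas the other groups reached 27.9 to 71.5 times at 1000 to 5000 reads. The WT HFD libraries were therefore counted as 1 sample in means, without SD. The model fits reported below (limma) kept them as 2 libraries. Averaging them is given as another setting where it ends a call of the 6 genes, and by counts for the lists. Wwtr1, which encodes TAZ, read 5594 and 4743 in WT on NC, 7121 and 6807 in WT on HFD, 2441 and 1957 in KO on NC, and 2060 and 2707 in KO on HFD. Yap1 read 2776 and 2717, 2468 and 2333, 1669 and 1699, and 1549 and 2068 in the same order. The log2 difference of Yap1 in KO from WT was -0.71 on chow and -0.42 on HFD. The difference on HFD was not called (limma adjusted p = 0.05906). Adipocyte markers were abundant in every library (Adipoq, 13284 to 54830). In bulk RNA, fewer cells of a type and less RNA per cell cannot be told apart.

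On HFD, all 6 genes were higher in WT than on chow and all 6 were lower in KO than in WT. The response to HFD in WT ran from 2.78 times for Trp53inp2 to 27.8 times for Sfrp5 (ratio of group means), the second resting on uneven WT chow libraries. In KO on HFD the genes stood between 4.74 times (Trp53inp2) and 117 times (Sfrp5) below WT. In WT, 6 of 6 were called higher on HFD (limma adjusted p at most 0.05 and log2 difference at least 0.59), against 8.74% of all genes tested. Between the genotypes on HFD, 6 of 6 were called lower in KO, against 15.1% of all genes tested. On chow 4 of 6, Mest, Sfrp5, Bmp3 and Npr3, were called lower in KO, against 1.5%. The 6 genes were chosen with earlier results of these data known, so setting them against such shares, here and below, is no test. These fits took the WT HFD libraries as separate samples. Averaging them ended the calls of Nkd1 and Trp53inp2 for HFD in WT and of Sfrp5 on chow. In KO none of the 6 was called for diet by limma, with 1.07% of all genes called in either direction (0.383% higher and 0.691% lower) and 2905 of 18800 at an unadjusted p under 0.05. The comparisons share groups, WT HFD libraries being the high side of both the diet comparison in WT and the genotype comparison on HFD.

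The same genes were read without a model by asking whether both libraries of a group lay beyond both of the other. In WT all 6 lay higher on HFD, against 31.4% of genes tested. On HFD all 6 lay lower in KO, against 33% of genes tested. On chow 4 of 6 lay lower in KO, against 22.2%, and in KO 2 of 6, Bmp3 and Npr3, lay higher on HFD, against 22.7%. The last 2 shares lie closest to the background.

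**Figure D1:**
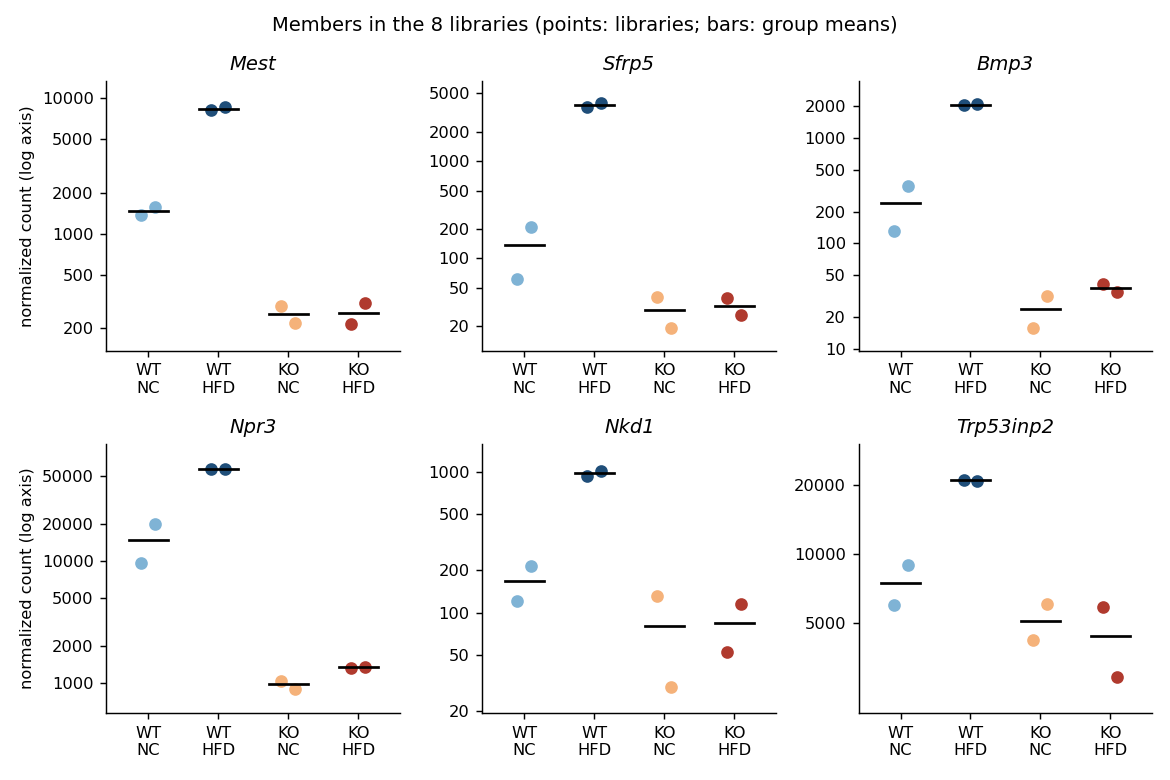
Normalized counts of the 6 genes on log axes, with points for the 2 libraries of each group and bars for group means. In each panel both WT HFD libraries stand above the other 6, and the KO libraries of both diets overlap or lie close together.

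Mest had the closest WT chow libraries of the 6. The WT chow libraries read 1375 and 1567 normalized counts (1471 ± 136, SD, n = 2), and the WT HFD libraries read 8231 and 8586. The KO libraries read 295 and 220 on chow (258 ± 53.0, SD, n = 2) and 214 and 306 on HFD (260 ± 65.1, SD, n = 2). The order was therefore WT on HFD, WT on chow, and then KO, where the 2 diets overlapped. The log2 difference for HFD in WT was 2.52 (SE 0.20; limma adjusted p = 3.858e-05). The same difference in KO was 0.01, with a 95% interval from -0.44 to 0.45, so a rise of the size seen in WT lies outside it. KO lay below WT by a log2 difference of -2.52 on chow (limma adjusted p = 1.521e-05) and -5.03 on HFD (adjusted p = 1.852e-08). The diet response differed between the genotypes by -2.51 (SE 0.29; adjusted p = 0.001359). In the rank of all 30387 genes by normalized count, Mest stood at 264 and 255 in WT on HFD and between 6529 and 7891 in KO.

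Sfrp5, the secreted WNT antagonist, had the largest relative response of the 6. It read 61 and 212 in WT on chow (136.5 ± 107, SD, n = 2) and 3632 and 3956 in WT on HFD. In KO it read 40 and 19 on chow (29.5 ± 14.8, SD, n = 2) and 39 and 26 on HFD (32.5 ± 9.19, SD, n = 2). HFD thus took Sfrp5 in WT from a low and uneven level to rank 770 and 706, while the KO libraries of the 2 diets overlapped. The log2 difference for HFD was 5.04 in WT (SE 0.50; limma adjusted p = 0.0001274), the seventh largest rise among the genes tested, and it was 4.15 without WT chow replicate 1 and 5.93 without replicate 2. In KO it was 0.20, with a 95% interval from -0.89 to 1.29. The 2 responses differed by -4.85 (SE 0.71; adjusted p = 0.002921). On HFD the difference of KO from WT was -6.85 (adjusted p = 9.452e-07). On chow its interval ran from -3.09 to -0.92 (adjusted p = 0.03903). The chow call was lost without WT chow replicate 2 (-1.11; adjusted p = 0.4254), without KO chow replicate 2 (-1.49; adjusted p = 0.2174) and without either WT HFD library, as well as in 6 of 12 other settings, among them the averaging of the WT HFD libraries (adjusted p = 0.1028).

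Nkd1, the intracellular WNT antagonist, was low, and uneven between the libraries of KO. It read 121 and 213 in WT on chow (167 ± 65.1, SD, n = 2) and 932 and 1015 in WT on HFD. The KO libraries read 132 and 30 on chow (81 ± 72.1, SD, n = 2) and 53 and 115 on HFD (84 ± 43.8, SD, n = 2). On chow WT and KO overlapped, since the higher KO library lay above the lower WT library. HFD raised Nkd1 in WT by 2.59 on the log2 scale (SE 0.56; limma adjusted p = 0.008574), and the difference of KO from WT on HFD was -3.62 (adjusted p = 0.0003721). In KO the diet difference was 0.30, with an interval from -0.91 to 1.51. The difference between the diet responses, -2.29, missed the limit (adjusted p = 0.06293) and was -3.34 without KO chow replicate 2 (adjusted p = 0.01334). The rise in WT was not called when the WT HFD libraries were averaged (adjusted p = 0.08634), without either of them, or without WT chow replicate 1 (adjusted p = 0.1106). On chow the difference of -1.33 was not called (adjusted p = 0.2417), and it was -2.38 without KO chow replicate 1 (adjusted p = 0.01599) and -0.28 without KO chow replicate 2.

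Bmp3, the BMP-family ligand, had the second largest response to HFD in WT. It read 131 and 346 in WT on chow (238.5 ± 152, SD, n = 2) and 2021 and 2073 in WT on HFD. In KO it read 16 and 32 on chow (24 ± 11.3, SD, n = 2) and 41 and 35 on HFD (38 ± 4.24, SD, n = 2). Even the higher KO library lay below the lower WT chow library. The log2 difference for HFD was 3.26 in WT (SE 0.43; limma adjusted p = 0.0006585) and 0.72 in KO (adjusted p = 0.4529). The rise in WT was 2.56 without WT chow replicate 1 and 3.96 without replicate 2, and the chow difference given next was -3.87 and -2.48 in these fits. The KO interval ran from -0.22 to 1.65. KO differed from WT by -5.72 on HFD (adjusted p = 1.156e-06) and by -3.18 on chow (adjusted p = 0.0007206). The diet responses differed by -2.54 (adjusted p = 0.01656), a call lost with the WT HFD libraries averaged (adjusted p = 0.08424) and without WT chow replicate 1, KO chow replicate 2, KO HFD replicate 2 or either WT HFD library (adjusted p from 0.05174 to 0.08316).

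Npr3, the natriuretic peptide clearance receptor, was the most abundant of the 6 in WT. It read 9692 and 20151 in WT on chow (14922 ± 7396, SD, n = 2) and 57132 and 57253 in WT on HFD, where it ranked 22 and 21 among all genes. In KO it read 1046 and 903 on chow (974.5 ± 101, SD, n = 2) and 1331 and 1358 on HFD (1344.5 ± 19.1, SD, n = 2). Of the 6, Npr3 was the gene that stood lowest in KO relative to WT already on chow, with a ratio of group means of 15.3. The log2 difference of KO from WT was -3.84 on chow (SE 0.25; limma adjusted p = 2.642e-06) and -5.41 on HFD (adjusted p = 3.281e-08). HFD raised it in WT by 2.03 (adjusted p = 0.0004795). In KO both HFD libraries lay above both chow libraries, but the difference of 0.47 was not called (interval from -0.08 to 1.02; adjusted p = 0.4025). The diet responses differed by -1.57 (adjusted p = 0.01417). Averaging the WT HFD libraries ended that call (adjusted p = 0.07357), as did leaving out either of them (0.0629 and 0.07014), scaling libraries to the same total (0.05053), and quantile normalization (0.05593).

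Trp53inp2, the autophagy and nuclear cofactor gene, moved least. It read 6027 and 8987 in WT on chow (7507 ± 2093, SD, n = 2) and 21013 and 20738 in WT on HFD. It read 4248 and 6042 in KO on chow (5145 ± 1269, SD, n = 2) and 5894 and 2917 in KO on HFD (4405.5 ± 2105, SD, n = 2). The chow groups overlapped by a narrow margin, 6042 in a KO library against 6027 in a WT library, and the log2 difference of -0.54 was not called (limma adjusted p = 0.3753). HFD raised it in WT, with a log2 difference between 0.88 and 2.13 (95% interval; adjusted p = 0.005034). KO stood lower on HFD, with a log2 difference of -2.33 (adjusted p = 6.74e-05). In KO the diet difference was -0.29, with an interval from -0.91 to 0.34. The diet responses differed by -1.79 (adjusted p = 0.01385). Averaging the WT HFD libraries took the rise in WT to an adjusted p of 0.06445 and the difference of responses to 0.07214. Without WT chow replicate 1 the rise was 1.22 (adjusted p = 0.08606), and without either WT HFD library its adjusted p was 0.05257 and 0.05822. The difference of responses was also lost without these 3 libraries or KO chow replicate 2 (adjusted p from 0.05594 to 0.08586).

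**Figure D2:**
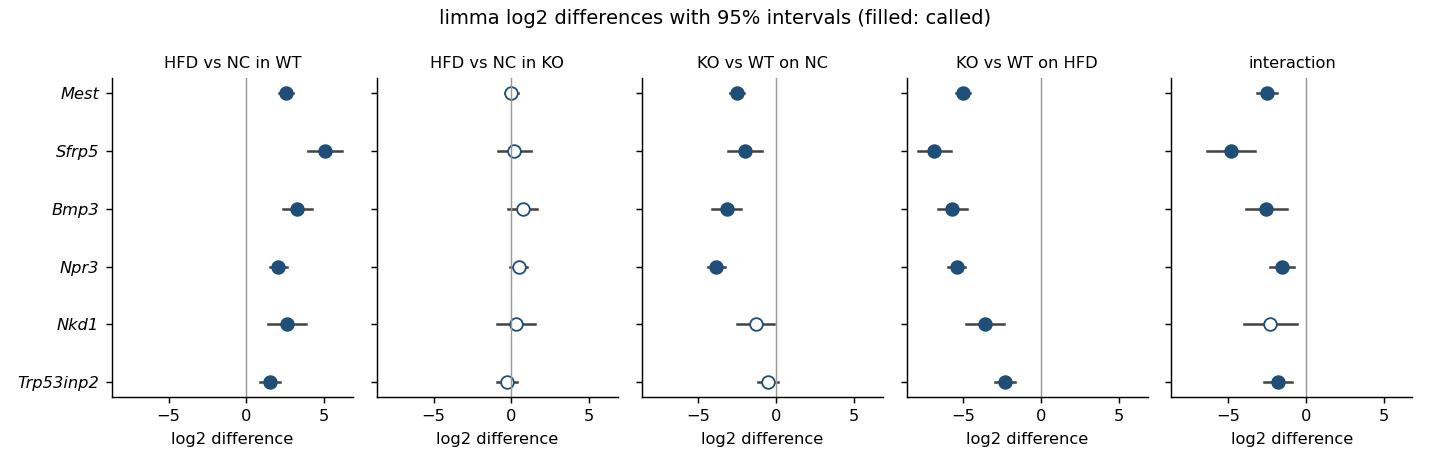
Log2 differences of the 6 genes from limma in 5 comparisons, with 95% intervals as lines, filled points for called genes and open points for the rest. All points lie right of 0 for HFD in WT and left of 0 for KO on HFD, and the intervals for HFD in KO include 0. The interaction is the response to HFD in KO minus that in WT.

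Over all genes tested, 1178 (6.27%) were called both higher on HFD in WT and lower in KO on HFD, and all 6 members were among them. The interaction was called as well for 937 genes (4.98%) and 5 of the 6, Nkd1 being the exception, with 8.73% of all genes called lower for the interaction alone. A further 45 of those 937 genes (0.239%) were also called lower in KO on chow, and they included Mest, Sfrp5, Bmp3 and Npr3. These joint patterns were chosen after the values were seen and share libraries.

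The WT chow libraries differed from each other in the same direction for all 6 genes. Replicate 2 read higher by 0.19 (Mest), 1.78 (Sfrp5), 1.39 (Bmp3), 1.06 (Npr3), 0.81 (Nkd1) and 0.58 (Trp53inp2) on the log2 scale. Among genes averaging 50 or more, 0.174% lay at least as far above as Sfrp5, 0.480% as Bmp3 and 1.18% as Npr3, and 51.7% were higher in replicate 2. The summed adipocyte markers of these libraries, 199840 and 206783, were close to each other. The 2 KO chow libraries did not share a direction, since Bmp3 and Trp53inp2 read higher in replicate 2 and the other 4 read lower. Why the WT chow libraries differ in these genes was not tested.

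Per kilobase of exon, Npr3 was first in both WT groups (1589 normalized counts per kb on chow and 6091 on HFD) and Trp53inp2 second (1428 and 3971). On chow the libraries of these 2 genes overlapped. In KO the order was exchanged, with Trp53inp2 at 979 and 838 per kb and Npr3 at 104 and 143. Mest followed in every group, at 2131 per kb in WT on HFD, close to Sfrp5 at 1997, and the libraries of Mest (2086 and 2176) lay just above those of Sfrp5 (1912 and 2082). Bmp3 (277 per kb) and Nkd1 (214 per kb) were the lowest in WT on HFD. The libraries of Sfrp5 and Nkd1 overlapped in WT on chow and in KO on both diets, so these 2 had a clear order only in WT on HFD.

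Markers of cell types moved along with these comparisons. Over all genes tested, 17.1% were called higher and 15.1% lower in KO on HFD, and 3.21% and 1.5% in KO on chow. For HFD in WT these shares were 8.74% and 9.22%. Of 10 adipocyte markers, 8 were called lower in KO on HFD (median log2 difference of the list -1.43), whereas on chow none was called lower, 1 (Cidea) was called higher and the median was -0.09. Their summed counts lay between 359874 and 367606 in WT on HFD and between 92112 and 183716 in KO on HFD, with the lowest sum in KO HFD replicate 2, where Trp53inp2 was also lowest. Sfrp5 and Bmp3 also read lower there than in KO HFD replicate 1, whereas Mest, Npr3 and Nkd1 read higher. All 10 macrophage markers were called higher in KO on both diets, with medians of 4.28 on HFD and 2.40 on chow. Their sums lay between 2191 and 5083 in WT and between 25290 and 58092 in KO. Progenitor and fibroblast markers were called higher in KO on HFD for 7 of 10 and on chow for none. Endothelial markers were called higher in KO on HFD for 4 of 8, and in WT 6 of 8 were called lower on HFD. On HFD in WT, 9 of 10 macrophage markers (median -1.29) and 4 of 10 progenitor and fibroblast markers (median -0.92) were also called lower, while the 6 genes rose. Epididymal markers summed to 24 in KO HFD replicate 2 and were at 0 in the others. Mesothelial sums lay between 206 and 764 and lymphocyte sums between 41 and 293 over the libraries. The part of these cells in the members' differences was not tested, beyond the scaling that follows.

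**Figure D3:**
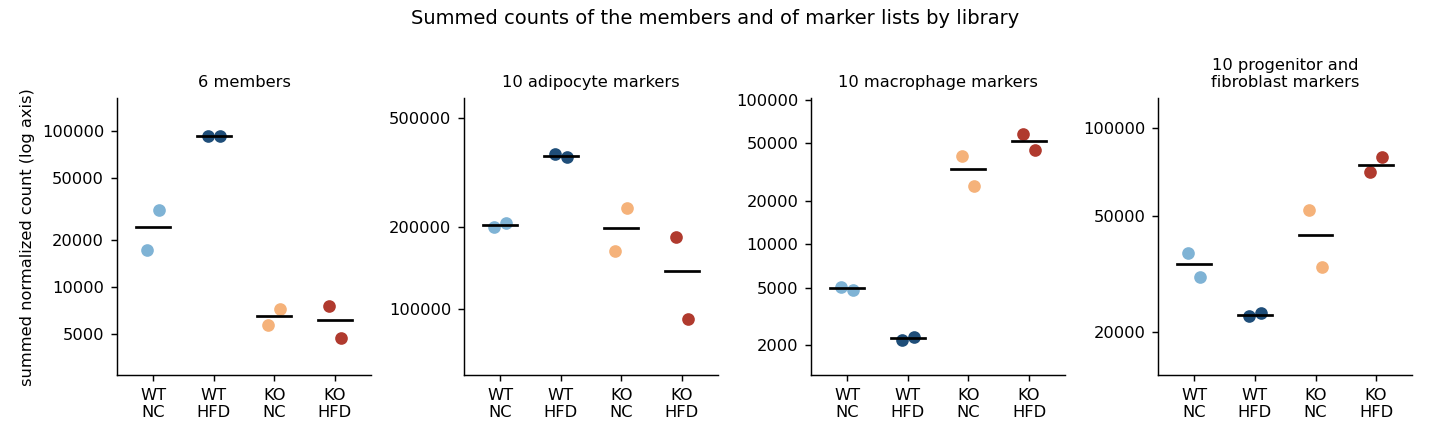
Summed normalized counts of the 6 genes and of 3 marker lists by library, on log axes, with bars for group means. The sums of the 6 genes lie between 4757 and 7572 in KO, below 17407 and 31476 in WT on chow, and the adipocyte markers overlap between the chow groups.

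Set against the summed adipocyte markers of the same library, both KO libraries on HFD lay below both WT libraries on HFD for all 6 genes. The 10 markers include Lep, the leptin gene, which also stands in the list of fat-expansion genes below. Lep read 72885 and 73642 in WT on HFD and 7257 and 1545 in KO on HFD. The sum therefore does not stand for adipocyte content alone, and a sum without Lep was not tested. On chow Nkd1 overlapped between the genotypes, and the nearest libraries of Sfrp5 stood at 0.305 in WT and 0.246 in KO. Mest stood at 6.88 and 7.58 per 1000 adipocyte-marker counts in WT on chow, 22.4 and 23.9 in WT on HFD, 1.81 and 0.938 in KO on chow, and 1.17 and 3.32 in KO on HFD. Npr3 stood at 48.5 and 97.5, 155 and 159, 6.43 and 3.85, and 7.25 and 14.7 in the same order. Trp53inp2 differed least, at 30.2 and 43.5, 57.2 and 57.6, 26.1 and 25.8, and 32.1 and 31.7. When libraries were scaled in this way, a choice made after seeing the data, all 6 were still called lower in KO on HFD. The log2 differences became -3.55 (Mest), -5.38 (Sfrp5), -4.25 (Bmp3), -3.93 (Npr3), -2.14 (Nkd1) and -0.85 (Trp53inp2), and the median of all genes moved to 1.53. Of the 18800 genes tested, 167 were called lower and 10796 higher for KO on HFD with this scaling. For KO on chow 49 were called lower, and for the interaction 27. On chow Mest, Bmp3 and Npr3 kept their calls (-2.46 for Mest and -3.79 for Npr3), and Sfrp5 lost its call (adjusted p = 0.09895). In WT the rise of Mest on HFD became 1.68 (limma adjusted p = 0.008615) and that of Trp53inp2 0.66, which was not called (adjusted p = 0.1442). Of the interactions only that of Sfrp5 was still called, at -3.44. The others shrank to -1.09 (Mest), -1.12 (Bmp3), -0.14 (Npr3), -0.37 (Trp53inp2) and -0.87 (Nkd1).

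**Figure D4:**
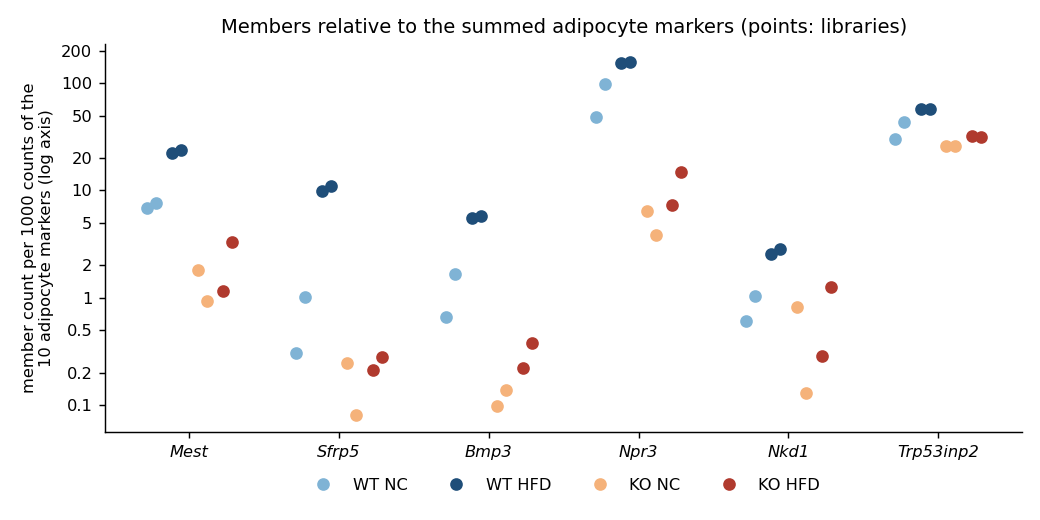
Counts of each of the 6 genes per 1000 counts of the 10 summed adipocyte markers, on a log axis, with 1 point per library. Both WT HFD points lie highest for every gene, and for Trp53inp2 the KO points lie within 25.8 and 32.1.

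Pathway genes were read as lists beside the whole table, where 8.74% of genes were called higher and 9.22% lower on HFD in WT, 17.1% and 15.1% in KO on HFD, and 3.21% and 1.5% in KO on chow. Sfrp1, Sfrp2, Ror1, Ror2, Gdf10, Fst, Id1, Id2, Npr1, Pde2a, Prkg1 and Meg3 are described below. In both libraries these genes fell on HFD in WT and stood higher in KO on HFD, although not all of the falls were called. Endothelial markers (6 of 8 and 4 of 8 called) and progenitor and fibroblast markers (4 of 10 and 7 of 10) took the same course. Whether these genes changed within adipocytes or with such cells was not tested. With the WT HFD libraries averaged, 14 of the 70 calls of list and marker genes for HFD in WT remained, 81 of 107 for KO on HFD and 21 of 26 for KO on chow. Of the genes named in the next paragraphs, those still called for HFD in WT were Fgf13, Scd1, Acly, Sfrp1, Id1, Npr1, Mme and Optn. Those no longer called were Id1, Prkg1, Pde2a and Trp53inp1 for KO on HFD, and Wnt5a, Fzd4 and Vmp1 for KO on chow. When libraries were scaled to adipocyte markers, the medians in KO on HFD turned to 1.04 for the autophagy list and 0.11 for the imprinted list, and 5 of the 12 fat-expansion genes were called lower and 2 higher. Over all genes tested that median was 1.53, with 167 called lower and 10796 higher. Other genes known from fat mass expansion formed a list of 12. In WT 8 of 12 were called higher on HFD, and 3 of 12 with the WT HFD libraries averaged (median log2 difference 1.08; all genes -0.08), and in KO on HFD 10 of 12 were called lower and 1 higher (median -1.79; all genes 0.09). Fgf13, a growth factor homologue, rose by 4.53 in WT, Lep, the hormone leptin, by 2.36, and the lipogenic enzymes Fasn and Acly by 1.64 each. Scd1, the desaturase of fatty acid synthesis, went from 457683 and 455110 to 2602971 and 2567533. In KO on HFD the log2 differences were -4.45 (Lep), -3.33 (Fasn), -3.10 (Fgf13), -3.07 (Elovl6) and -2.84 (Scd1). On chow 1 of the 12 was called lower in KO, Elovl6 (-1.28). Lep read 10493 and 19324 in WT on chow and 72885 and 73642 in WT on HFD, against 6932 and 10784 in KO on chow and 7257 and 1545 in KO on HFD.

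WNT pathway genes did not move as a block. Of 15 WNT antagonists tested, 2 were called higher and 1 lower on HFD in WT (median -0.16), and 2 higher and 3 lower in KO on HFD (median -0.09). Sfrp1, a relative of Sfrp5, went the other way. It read 416 and 477 in WT on chow, 107 and 92 in WT on HFD, 464 and 193 in KO on chow, and 345 and 666 in KO on HFD, with a log2 difference of -2.16 for HFD in WT and 2.26 for KO on HFD. Sfrp2 was also higher in KO on HFD (2.71), while Apcdd1, a membrane antagonist, and Axin2, a feedback target of the pathway, were lower (-2.59 and -1.53). Nkd2, the relative of Nkd1, read 8 to 91 over the libraries and was called in no comparison. Of 26 ligands, receptors and carriers, 4 were called higher and 5 lower on HFD in WT, and 4 higher and 6 lower in KO on HFD. Wnt5a, a ligand that SFRP5 binds, rose by 1.15 on HFD in WT and was lower in KO by -1.41 on HFD and -0.94 on chow. It read 273 and 328 in WT on chow, 659 and 668 in WT on HFD, 144 and 167 in KO on chow, and 216 and 289 in KO on HFD. Wnt11 read between 41 and 96 and was not called. Fzd4, a receptor, was lower in KO on both diets (-2.22 on HFD and -0.92 on chow). Ror1 and Ror2, receptors of Wnt5a, were higher in KO than in WT on HFD (1.93 and 2.94). Ror2 was low, at 3 and 3 in WT on HFD and 21 and 42 in KO on HFD.

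Of 31 BMP and activin genes tested, 2 were called higher and 6 lower on HFD in WT, and 7 higher and 8 lower in KO on HFD. Gdf10, the closest relative of Bmp3, ran against it: it read 548 and 523 in WT on chow, 220 and 236 in WT on HFD, 712 and 383 in KO on chow, and 590 and 885 in KO on HFD. Gdf10 fell by 1.23 on HFD in WT and was higher by 1.66 in KO on HFD. Fstl3, a binder of activins, rose with HFD in WT (1.80) and was lower in KO on HFD (-3.18), and Fst, another binder, was higher in KO on HFD (2.92). Id1, a target of BMP signals, was lower on HFD in WT (-1.78), and Id3, another target, was lower in KO on chow (-1.68) and on HFD (-1.57). In KO on HFD Id1 and Id2, a related target, were called higher (0.77 and 2.32). Acvr2b, the receptor through which BMP3 acts, read between 36 and 66 and was not called.

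Among 15 natriuretic peptide and cGMP genes, 2 were called higher and 3 lower on HFD in WT, and 4 higher and 3 lower in KO on HFD. Npr1, the receptor that signals through cGMP, moved opposite to Npr3. It read 1231 and 1187 in WT on chow, 486 and 375 in WT on HFD, 1352 and 989 in KO on chow, and 1344 and 1607 in KO on HFD. The log2 difference was -1.50 for HFD in WT (limma adjusted p = 0.0006271) and 1.78 for KO on HFD (adjusted p = 2.751e-05), and on chow it was -0.06. Npr2, the other signalling receptor, read 674 to 1016 and was called in no comparison. Mme, a peptidase that degrades natriuretic peptides, went in the direction of Npr3 for HFD in WT (1.54) and for KO on HFD (-1.79). So did Ide, another peptidase (0.95 and -0.83). Unlike Npr3, neither was called in KO on chow (-0.09 for Mme and 0.20 for Ide). Pde2a, which breaks down cGMP, and Prkg1, a cGMP-dependent kinase, were lower on HFD in WT (-1.75 and -1.13) and higher in KO on HFD (1.71 and 1.10). Nppc, the C-type peptide, was listed at 0 in 6 libraries and at 3 and 2 in the others.

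Of 25 autophagy genes, 6 were called higher on HFD in WT (median 0.39) and 7 were called lower and 1 higher in KO on HFD (median -0.44). Trp53inp1, the paralogue of Trp53inp2, read 364 and 392 in WT on chow, 637 and 675 in WT on HFD, 332 and 452 in KO on chow, and 320 and 400 in KO on HFD. It rose by 0.79 in WT and was lower by -0.87 in KO on HFD, both smaller than for Trp53inp2. Optn, an autophagy receptor, Wipi1 and Ulk2 rose in WT by 1.59, 1.05 and 0.91, and were lower in KO on HFD (-1.21, -1.38 and -1.37). On chow 1 of the 25 was called lower in KO, Vmp1 (-0.70).

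Among 19 genes of the Mest locus and other imprinted genes, 5 were called higher and 2 lower on HFD in WT, and 10 lower and 3 higher in KO on HFD. Copg2, which lies on the opposite strand and covers 23.1% of the exon bases of Mest, read 905 and 941, 1891 and 1945, 557 and 718, and 668 and 448 in WT on chow, WT on HFD, KO on chow and KO on HFD. It was called higher on HFD in WT (1.05) and lower in KO on HFD (-1.81), both less than Mest. Counting is stated to leave out reads over several genes, but not to use strand, so reads of the shared stretch may be missing from both. Klf14, a transcription factor gene of the same imprinted cluster, read 14 and 11 in WT on chow, 329 and 239 in WT on HFD, and 0 in all 4 KO libraries, at least 109-fold lower in KO on HFD with a floor of 3 reads in each KO library. Nnat, a paternally expressed gene, was lower in KO on both diets (-5.11 on HFD and -4.85 on chow), with no call for diet in WT. Peg3 and Plagl1 were lower in KO on HFD (-2.21 and -2.26) and on chow (-1.16 and -1.66), and Meg3, a maternally expressed RNA, was higher in KO than in WT on HFD (2.30).

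**Figure D5:**
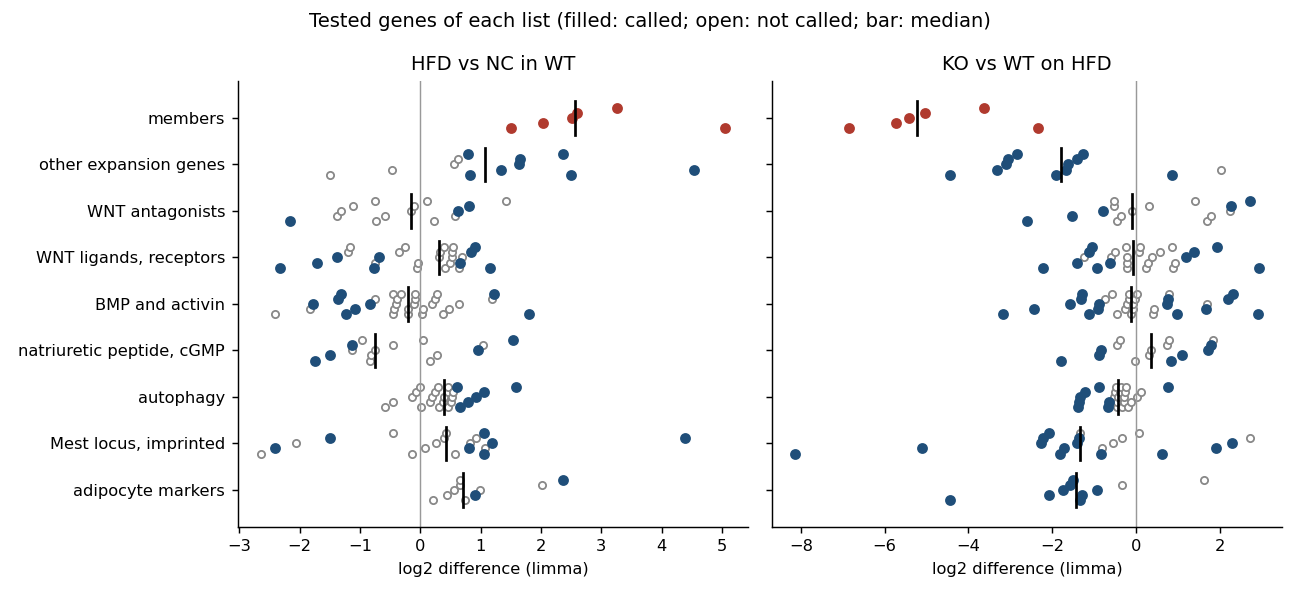
Log2 differences of every tested gene in the lists, for HFD in WT (left) and KO on HFD (right), with filled points for called genes, open points for the rest and bars for medians. The medians of the 6 members are 2.55 and -5.22. The leftmost imprinted gene on the right is Klf14, which was at 0 in KO, so its position depends on the pseudocount. The other pathway lists straddle 0.

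The nearest profiles were sought among the 12093 genes averaging 50 or more, by the root-mean-square difference of centred log2 values over the 8 libraries. The gene nearest to Mest was Syp, the synaptophysin gene (0.293), followed by Synpo2 (0.431) and Prelp (0.511), a matrix proteoglycan. Syp read 65 and 93 in WT on chow, 376 and 434 in WT on HFD, 19 and 14 in KO on chow, and 18 and 17 in KO on HFD. Nearest to Sfrp5 were 1700047G03Rik (0.642), Marc1 (0.776) and Bmp3 (0.835), and nearest to Bmp3 were Npr3 (0.548), 1700047G03Rik (0.575) and Mest (0.698). Npr3 was closest to Sncg, the synuclein gamma gene (0.480), then to Bmp3 and Mest (0.549). Nkd1 was closest to Synpo2 (0.497), Lbp (0.531) and Ptchd4 (0.547). Trp53inp2 had much nearer neighbours, Cib2 (0.173) and Mmd (0.178) among them. Its distances to the other 5 members were 1.08 to 2.02, overlapping those among the 5 (0.548 to 1.42). Since groups differ widely, such distances mostly order genes by the size of the group differences.

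All 6 genes are protein-coding, and the GRCm38 positions were Mest at chr6:30723547-30748465 (plus strand), Sfrp5 at chr19:42197971-42202252 (minus), Bmp3 at chr5:98854415-98884396 (plus), Npr3 at chr15:11839896-11905674 (minus), Nkd1 at chr8:88521354-88594884 (plus) and Trp53inp2 at chr2:155381059-155389850 (plus). GENCODE vM21 extends Npr3 to 11907287. There a non-coding gene, Gm5144, covers 3.42% of its exon bases on the opposite strand. No other gene shared exon bases with Sfrp5, Bmp3, Nkd1 or Trp53inp2.

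Since the members moved together, the 250 bases before their RefSeq start sites (GRCm38.p6) were searched. The table gave windows for 5 of the 6, with 3 for Mest, and none for Bmp3. The motifs, on both strands, were the TEAD motif GGAATG, the TCF/LEF motif CTTTGAT, the AP-1 motif TGANTCA and the C/EBP motif TTGCNNAA. They were present in 12.6%, 3.21%, 6.75% and 9.56% of all 32851 windows. The only match was 1 C/EBP motif, TTGCAGAA, 155 bases before the first of the 3 Mest starts. No match says only that these letters are not in these windows. The windows of the 3 members with the largest gaps between genotypes on HFD that had one are shown 5′ to 3′ on the strand of the gene, with no base in capitals because none matched. These are Mest at its second start (chr6:30737800-30738049, plus), Sfrp5 (chr19:42202253-42202502, minus) and Npr3 (chr15:11907372-11907621, minus):
Mest: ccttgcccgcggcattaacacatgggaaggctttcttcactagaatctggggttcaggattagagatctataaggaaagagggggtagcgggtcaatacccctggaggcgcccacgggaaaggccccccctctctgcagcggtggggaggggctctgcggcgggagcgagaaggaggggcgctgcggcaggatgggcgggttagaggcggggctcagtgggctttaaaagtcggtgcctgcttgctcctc
Sfrp5: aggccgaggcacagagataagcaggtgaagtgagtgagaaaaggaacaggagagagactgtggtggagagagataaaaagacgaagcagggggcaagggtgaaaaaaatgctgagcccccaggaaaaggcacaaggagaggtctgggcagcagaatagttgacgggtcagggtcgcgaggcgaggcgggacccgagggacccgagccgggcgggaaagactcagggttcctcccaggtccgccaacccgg
Npr3: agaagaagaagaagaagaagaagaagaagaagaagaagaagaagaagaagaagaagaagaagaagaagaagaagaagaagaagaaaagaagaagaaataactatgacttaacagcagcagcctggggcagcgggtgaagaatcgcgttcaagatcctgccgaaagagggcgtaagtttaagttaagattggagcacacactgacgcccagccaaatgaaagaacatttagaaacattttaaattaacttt
The Mest and Sfrp5 windows were GC-rich, at 62.4% and 59.6% against a median of 52.4% over all windows, and held 14 and 13 CpG sites. The Npr3 window held 38.8% GC and 6 CpG sites, and opened with a run of AGA repeats. The ratio of observed to expected CpG was 0.608 for Mest, 0.657 for Sfrp5 and 0.746 for Npr3, against a median of 0.373.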

How the data were processed

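RNA-seq was measured in 8 libraries of isolated white adipocytes, 2 in each of 4 groups taken from the sample labels. Per the labels and the study's methods, the authors removed ribosomal RNA, made libraries with the SMARTer Stranded kit, trimmed single-end reads with Reaper, aligned them to GRCm38 (mm10) with STAR 2.5.2b, counted exon reads per gene with featureCounts 1.5.1, leaving out reads over several genes or places, and used DESeq2 1.14.1. The deposited value is a score: the authors divided each gene's count by the size factor of its library and rounded the quotient to a whole number. Whole reads could not be recovered for each gene after the rounding, so count tests were not run, although they had been planned for recoverable reads. The value of 1 read, estimated from which whole numbers occur, ran from 0.795 to 1.14 between libraries and gave the depth of each. Reads carry no molecular identifiers, so a floor of 3 reads at a listed 0, turned into normalized counts of that library, covers counting error only.

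Genes with a mean of at least 5 (18800 of 30387) were fitted with limma 3.58.1 under R 4.3.3, by lmFit, contrasts.fit and trended eBayes on log2(value + 1). The fit had 4 group means, 4 residual degrees of freedom and 8.59 prior ones. Log2 differences are on that scale and understate changes of low genes. All adjusted p-values are from limma, by Benjamini-Hochberg over all genes tested, and a call needed both an adjusted p no higher than 0.05 and a log2 difference of 0.59 or more. An exact permutation test of 2 libraries against 2 could not go below p = 0.333. Alternatives were a pseudocount of 0.1 or 8, no filter or a mean of 50, same-total, upper-quartile and quantile scaling, fits of only the 2 groups, robust eBayes, a replicate block, averaged WT HFD libraries, and leaving out each library. Scaling to adipocyte markers and a crossed block were added after seeing the data. The 6 genes and all gene lists were chosen with earlier results of these data known. Named genes were the 6, up to 5 called genes of each list and comparison with the largest difference, relatives, ligands, receptors and neighbours of the 6, the deleted genes and the 3 nearest profiles, of which 1 is not reported here. Where a symbol stood in more than 1 row (15 rows), the row with the highest mean was used. Exon lengths and overlaps came from GENCODE vM21 (30259 of 30387 identifiers found), and promoter windows from RefSeq. Python 3.11.15 with pandas 2.3.3 and numpy 2.4.6 made the tables, and matplotlib 3.10.9 drew the plots.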

Additional observations from a re-analysis of the deposited data

Results flagged for a closer look

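The response to HFD differed between the genotypes for 5 of the 6 genes by the limma interaction, given as the response in KO minus that in WT on the log2 scale. The values were -2.51 for Mest, -4.85 for Sfrp5, -2.54 for Bmp3, -1.57 for Npr3 and -1.79 for Trp53inp2. For Mest and Sfrp5 the call held in all 8 fits that left out a library, for Npr3 in 6, for Trp53inp2 in 4 and for Bmp3 in 3. Across the 11 other settings it held for Sfrp5 in all 11, for Mest in 10, for Bmp3 and Trp53inp2 in 8 and for Npr3 in 6.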

How the results depend on the processing

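With 2 libraries a group and 4 residual degrees of freedom, a difference that missed the limits is not shown to be absent, and the WT HFD libraries may add little beyond 1 sample. Of 600 values of the 6 genes under other settings, 545 kept direction and call, 44 lost the call, 3 gained it and 8 reversed; the cause was not tested. All 8 reversals were uncalled differences for HFD in KO: without KO_NC replicate 2 (Mest -0.20, Sfrp5 -0.32, Nkd1 -0.75), without KO_HFD replicate 1 (Sfrp5 -0.08), without KO_HFD replicate 2 (Mest -0.25, Nkd1 -0.25, Trp53inp2 0.22) and with adipocyte-marker scaling (Trp53inp2 0.30). Leaving out a library, that difference ran from -0.25 to 0.26 for Mest, -0.32 to 0.72 for Sfrp5, 0.24 to 1.19 for Bmp3, 0.36 to 0.57 for Npr3, -0.75 to 1.35 for Nkd1 and -0.80 to 0.22 for Trp53inp2. The 6 genes were called lower in KO on HFD under every setting tried. Leaving out a library gave 3 to 5 of the 6 called lower on chow, 4 to 6 called higher on HFD in WT, 2 to 5 called for the interaction and 6 in each fit for KO on HFD; the fewest came without WT_NC replicate 2, KO_NC replicate 2 or WT_HFD replicate 1 or 2 (chow), without WT_NC replicate 1 or WT_HFD replicate 1 or 2 (HFD in WT) and without WT_HFD replicate 1 or 2 (interaction). The interaction was called for 2 of the 6 without a filter, 2 with the WT HFD libraries averaged and 1 with adipocyte-marker scaling. Leaving out a library, counts of called genes over the whole table ran from 3629 to 6383 for KO on HFD (6053 in the fit reported), 381 to 1023 for KO on chow (886), 628 to 3866 for HFD in WT (3377), 14 to 961 for HFD in KO (202) and 530 to 4249 for the interaction (3274). Averaging the WT HFD libraries gave 3445, 539, 28 and 517 genes for KO on HFD, HFD in WT, HFD in KO and the interaction. Adipocyte-marker scaling gave 10963 genes (10796 higher and 167 lower) for KO on HFD, 315 on chow (266 and 49), 40 for HFD in KO (31 and 9), 5063 for the interaction (5036 and 27) and 88 higher and 3311 lower for HFD in WT, and it moved the median of all genes to 1.53, 0.04, 0.61, 1.48 and -0.88. Scaling to the same total moved the medians to 0.47 for KO on HFD (4618 higher and 1367 lower), -0.48 for HFD in WT (470 and 3568) and 0.52 for the interaction (2611 and 619), and left 60 higher and 175 lower for HFD in KO. Upper-quartile scaling gave 1089 higher and 2194 lower for HFD in WT and 1971 and 1288 for the interaction, against 1643 and 1734, and 1633 and 1641, in the fit reported. Without a filter 438 genes were called on chow, 1701 for HFD in WT, 3 for HFD in KO and 721 for the interaction. Quantile normalization gave 2186 for HFD in WT and 304 for HFD in KO, a fit of only the 2 groups 461 on chow and 0 for HFD in KO (limma; 2905 genes had an unadjusted p under 0.05 in the fit reported), and a pseudocount of 0.1 or 8 gave 112 or 330 for HFD in KO. Same-numbered libraries did not deviate together, with correlations from -0.30 to 0.11, so the numbers were not taken as pairs. The replicate block gave 112 genes for HFD in KO and left the chow difference of Sfrp5 uncalled (adjusted p = 0.06266, limma), and the crossed block gave 344.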

Other observations

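Known YAP/TAZ target and pathway genes, a list that includes the 2 deleted genes, changed with genotype on both diets. Of 8 tested, 6 were called lower in KO on HFD (median log2 difference -0.88), against 15.1% of all genes, and 4 on chow (median -0.65), against 1.5%. Without the deleted genes these were 5 of 6 and 2 of 6. When libraries were scaled to adipocyte markers, none of those 6 was called lower on HFD by limma and their median was 0.59. With that scaling the median of all genes was 1.53, and 167 of 18800 genes were called lower. Amotl2, a regulator that binds YAP, read 4254 and 5972 in WT on chow, 7068 and 7075 in WT on HFD, 1672 and 1760 in KO on chow, and 1731 and 1424 in KO on HFD. Cyr61, a secreted matrix protein and common target, read 5335 and 5442, 10496 and 10339, 2494 and 1657, and 3057 and 3288 in the same order. Its rise on HFD in WT was 0.95 (limma adjusted p = 0.004667), and its adjusted p was 0.06806 with the WT HFD libraries averaged. Of the genes of the lists, 8 were called for HFD in KO, with 0.383% of all genes called higher and 0.691% lower. They were Fst (1.70), an activin binder, Acvr1c (-1.41) and Acvr1b (-1.01), activin receptors, Id3 (-0.71), and Zim1 (3.21), an imprinted zinc finger gene, beside the markers Adgre1, Col1a1 and Pdgfra, which were called higher. With the WT HFD libraries averaged, Zim1 alone of these 8 was still called.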
